A study of Mus musculus with 9 samples.

Results

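Integrins and laminins are described here in stromal cells of mouse bone marrow, grown as a line and exposed to peritoneal fluid. The members were taken by gene symbol alone: every numbered Itga or Itgb gene, the lettered alpha subunits Itgav, Itgal, Itgam, Itgax, Itgae and Itgad, and every numbered Lama, Lamb or Lamc gene. The rule found 36 of the 21959 genes in the expression table, namely 17 integrin alpha subunits, 8 integrin beta subunits and 11 laminin chains (5 alpha, 3 beta and 3 gamma). The rule itself reads no expression value, but these families were chosen with earlier results of these data known. Counts of called members are therefore a description only.

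The cells carry the label SV40 and are named bone marrow mesenchymal stromal cells, and 1 line served for all libraries. They were kept for 24 h with 1 of 3 additions, giving 3 libraries in each group. The control PF group received peritoneal interstitial fluid from control mice. The TNBS PF group received such fluid from mice given TNBS, the hapten trinitrobenzene sulfonic acid that causes colitis, for 3 days, which the labels call IBD mice. The PBS group received phosphate-buffered saline. The growth medium was DMEM/F12 with 10% serum, so all groups shared serum. The age, strain and number of the fluid donors are not in the sources used here. No label says that the 3 libraries of a group came from separate cultures or separate donors of fluid, so a p-value here reflects the spread among these libraries alone, and that spread may be technical.

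An integrin is a receptor made of 1 alpha and 1 beta subunit that joins the extracellular matrix to the actin cytoskeleton, and the alpha subunit largely sets the ligand. The pairs of the beta1 subunit with alpha3, alpha6 or alpha7 bind laminins, the pairs with alpha1, alpha2, alpha10 or alpha11 bind collagens, and alpha5 beta1 and the alphav integrins bind the RGD motif of fibronectin or vitronectin. Laminins are cross-shaped basement membrane proteins built of 1 alpha, 1 beta and 1 gamma chain. In bone marrow, stromal cells make laminins with the alpha4 chain and hold on to matrix mainly through beta1 integrins.

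Levels are FPKM, fragments per kilobase of exon scaled to the mapped fragments of each library, which allow for gene length and can be compared between genes. Differences are log2 differences of FPKM + 1 fitted by limma, and a gene was called at a Benjamini-Hochberg adjusted p under 0.05 over the 10537 genes tested. Those genes reached 1 FPKM in at least 3 libraries. Of the members, 15 passed, made up of 6 integrin alpha, 3 integrin beta and 6 laminin genes, and each of the 15 was at or above 1 FPKM in all 9 libraries. The other 21 stayed under 1 FPKM in every library and were not tested. Sequencing depth, recovered from the FPKM steps, was 22.9 to 25.6 M fragments in the TNBS PF libraries, 18.6 to 21.5 M with control PF and 17.9 to 20.3 M with PBS. The TNBS PF libraries were thus the deepest, and the part of depth in the results was not tested.

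The cell label was checked with marker genes. Of 12 stromal markers, 11 passed the filter, and their sum was 1263 to 1273 FPKM with control PF, 1133 to 1172 with TNBS PF and 1273 to 1353 with PBS. All 7 general leucocyte markers, all 7 endothelial markers and all 7 epithelial markers were under 1 FPKM in every library, as were the neutrophil, T and NK, and B cell markers. Of 12 macrophage and monocyte markers, 10 were under 1 FPKM in every library, but Cd14 was at 12.0 to 15.6 FPKM and Cd68 at 1.40 to 2.39. Their sum was 16.3 to 18.2 FPKM with TNBS PF, 15.3 to 17.4 with control PF and 14.5 to 15.9 with PBS, and 1 of the 2 tested genes, Cd14, was called higher with TNBS PF than with PBS. Of 5 platelet markers 3 were under 1 FPKM throughout, and their sum was 1.97 to 3.34 FPKM. Of 14 mesothelial markers, 10 were under 1 FPKM in every library and Muc16 was listed at 0 in all 9, while their sum was 53.0 to 58.3 FPKM with TNBS PF, 46.5 to 48.0 with control PF and 48.1 to 49.3 with PBS. The stromal sum was thus lowest and the mesothelial sum highest in the TNBS PF libraries, and the macrophage sum also lay above all PBS libraries there. Msln made up most of the mesothelial sum. It was at 39.1 to 44.9 FPKM with TNBS PF, 35.2 to 36.1 with control PF and 37.3 to 39.4 with PBS. Slpi went the other way against control PF only, at 4.44 to 5.55 FPKM with TNBS PF, 5.79 to 6.45 with control PF and 3.71 to 5.28 with PBS. Of 4 tested mesothelial markers, 3 were called higher and 0 lower with TNBS PF, both against control PF and against PBS. Of all tested genes, 5.15% and 7.8% were called higher in these comparisons. With TNBS PF against control PF, 2 of 11 tested stromal markers were called higher and 5 lower, beside 5.15% and 5.45% of all tested genes. The part of any of these in the results below was not tested. In bulk RNA, fewer cells of a type and less RNA per cell cannot be told apart.

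One beta and a pair of alpha subunits made up most of the integrin RNA. Itgb1, the beta1 subunit shared by the laminin, collagen and fibronectin receptors, stood at 489.8, 485 and 481 FPKM with control PF, 506, 520.0 and 515 with TNBS PF, and 476, 485 and 499 with PBS. It held between 85.9% and 88.4% of the summed integrin beta FPKM in each library. Itgb5, the vitronectin receptor subunit, followed in all 9 libraries at 6.46 to 8.26 times less, and Itgb7, the leucocyte subunit that pairs with alpha4 or alphaE, was 19.4 to 30.9 times below Itgb5. Among the alpha subunits, Itga5, the fibronectin receptor subunit, was at 45.3, 48.1 and 48.6 FPKM with control PF, 48.6, 48.8 and 48.0 with TNBS PF, and 48.2, 42.8 and 47.0 with PBS. Itga5 and Itgav together held 72.6% to 77.1% of the summed alpha FPKM. The order Itga5, Itgav, Itga3 was the same in all 9 libraries, and Itga6 was above Itga7 in 7 of 9, so that pair had no fixed order. Itga2, a collagen receptor subunit, was the lowest that passed the filter, at 1.54 ± 0.163 FPKM with control PF, 1.75 ± 0.145 with TNBS PF and 1.44 ± 0.176 with PBS (SD, n = 3 each).

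Laminin RNA was led by the beta1 and gamma1 chains, which occur in most laminins. Lamb1 was at 42.4, 44.1 and 44.8 FPKM with control PF, 44.5, 45.2 and 45.1 with TNBS PF, and 43.1, 41.5 and 43.1 with PBS. Lamc1 was at 39.5, 42.2 and 41.8 FPKM with control PF, 42.4, 41.6 and 43.0 with TNBS PF, and 47.0, 42.9 and 42.7 with PBS. Lamb1 exceeded Lamc1 in 7 of 9 libraries, the exceptions being PBS 1 and PBS 2, so these neighbours did not differ in a fixed way. Lamc1 was 2.29 to 2.76 times Lamb2, the other expressed beta chain, and Lamb2 was 1.42 to 1.70 times Lama4. Lama4, the alpha chain of mesenchymal and endothelial laminins, was the leading alpha chain and stood 3.68 to 4.89 times above Lama2, the alpha chain of muscle basement membrane. Summed over chains of a kind, alpha chain FPKM was 13.7 to 15.8, beta 58.9 to 63.2 and gamma 41.4 to 48.8, so alpha chain RNA was the scarcest in all 9 libraries.

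**Figure D1:**
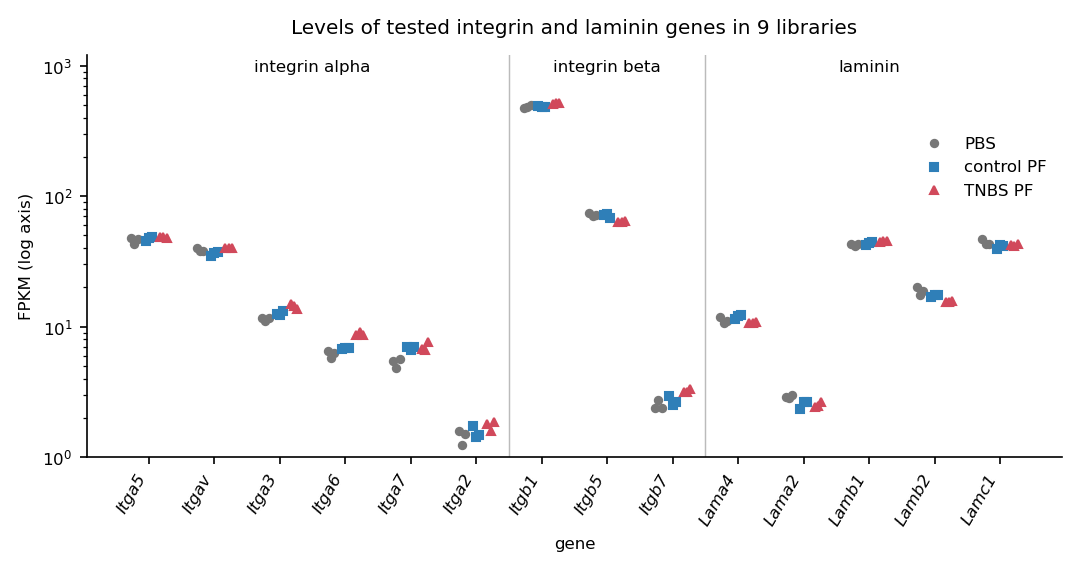
FPKM of 14 of the 15 members that passed the filter, on a log axis, with 1 point per library, coloured by group. Itgb1 sits far above the others, between 476 and 520.0 FPKM, and within each gene the 3 groups lie close together beside the gaps between most genes.

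The first comparison asks how cells in fluid from TNBS mice differed from cells in fluid from control mice. The subunits Itga6, Itga3 and Itgav rose, and Itgb5, Lama4 and Lamb2 fell. That is 6 of 15 tested members, 3 in each direction, where 10.6% of all tested genes were called, 5.15% higher and 5.45% lower. The median log2 difference was 0.04 over the 15 members and -0.01 over all tested genes, and the median absolute log2 difference was 0.11 against 0.07. The widest called change was a ratio of mean FPKM of 1.28, for Itga6. Leaving out 1 library gave 3 called members without control PF 1 or TNBS PF 3, 1 without control PF 2 and 2 without TNBS PF 1 or TNBS PF 2. Scaling moved the split of calls: 3 members higher and 1 lower under TPM or median-ratio scaling, 2 and 1 under quantile normalization, and over all tested genes 679 higher and 442 lower under median-ratio scaling beside 543 and 574 as reported. The control PF libraries also enter the second comparison and the TNBS PF libraries the third, so the 3 comparisons are not independent of each other.

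Itga6 (ENSMUSG00000027111, mm10 chromosome 2, 71745616 to 71858416, plus strand) encodes the alpha6 subunit, a laminin receptor that pairs with beta1 or beta4. It stood at 8.58, 9.05 and 8.59 FPKM with TNBS PF, 6.71, 6.87 and 6.89 with control PF, and 6.57, 5.76 and 6.28 with PBS. All 3 TNBS PF libraries lay above all 6 others. The difference from control PF was 0.32 log2 (SE 0.0508, limma adjusted p = 0.00174), a ratio of means of 1.28. Itga6 was called in this comparison under all 20 alternative analyses, with adjusted p of at most 0.0119. Itgb4, its partner in hemidesmosomes, averaged 0.103 FPKM with control PF, 0.106 with TNBS PF and 0.103 with PBS, far below Itgb1.

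Itga3 (ENSMUSG00000001507, chromosome 11, 95044474 to 95076801, minus strand) encodes the alpha3 subunit, also a laminin receptor with beta1. Its level was 14.9, 14.5 and 13.6 FPKM with TNBS PF, 12.4, 12.3 and 13.1 with control PF, and 11.6, 11.0 and 11.7 with PBS. The 3 groups did not overlap. The difference between TNBS PF and control PF was 0.17 log2 (SE 0.0441, limma adjusted p = 0.0272). This call was lost without control PF 1 (adjusted p = 0.0754), control PF 2 (0.0933), TNBS PF 1 (0.108) or TNBS PF 2 (0.0901).

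The alphav and beta5 subunits form the vitronectin receptor alphav beta5, and their RNAs moved in opposite directions between TNBS PF and control PF. Itgav (ENSMUSG00000027087, chromosome 2, 83724397 to 83806916, plus strand) was at 40.0, 40.0 and 39.8 FPKM with TNBS PF, 34.8, 36.5 and 37.5 with control PF, and 39.9, 38.1 and 38.0 with PBS. The TNBS PF and control PF libraries did not overlap, and the PBS libraries lay above all control PF libraries too. Itgav was 0.14 log2 higher with TNBS PF than with control PF (SE 0.0342, limma adjusted p = 0.0230). That call was lost without control PF 1 (adjusted p = 0.0818), control PF 2 (0.0558), TNBS PF 1 (0.0705), TNBS PF 2 (0.0712) or TNBS PF 3 (0.0653), under quantile normalization (0.0502) and with no mean-variance trend (0.0613). The opposite strand holds Gm13684 over 5.90% of the Itgav exon length, and no label or header gives the strand of the libraries.

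Itgb5 (ENSMUSG00000022817, chromosome 16, 33829665 to 33949338, plus strand) was at 63.5, 63.0 and 65.1 FPKM with TNBS PF, 71.4, 72.8 and 68.1 with control PF, and 73.7, 70.9 and 71.8 with PBS. All 3 TNBS PF libraries lay below all 6 others. The log2 difference from control PF was -0.15 (SE 0.0317, limma adjusted p = 0.0106), called in 19 of 20 alternatives and lost without control PF 2 (adjusted p = 0.0538). Itgb5 was the only tested integrin subunit called lower in either TNBS PF comparison. Its alpha partner therefore rose against control PF while Itgb5 fell. Against PBS, Itgav was not called with TNBS PF (0.05 log2, limma adjusted p = 0.392) and the libraries overlapped. Itgb3, the other well known partner of alphav, averaged 0.475 FPKM with control PF, 0.428 with TNBS PF and 0.401 with PBS.

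The 250 bases before the start of these partner genes are shown because their RNAs moved in opposite directions between TNBS PF and control PF. They come from RefSeq promoters on GRCm38.p6, in which 22 of the 36 members were found, and capitals mark GGGCGG on either strand, the core of the GC box read by Sp1.
Itgav, chr2:83724147-83724396, plus strand: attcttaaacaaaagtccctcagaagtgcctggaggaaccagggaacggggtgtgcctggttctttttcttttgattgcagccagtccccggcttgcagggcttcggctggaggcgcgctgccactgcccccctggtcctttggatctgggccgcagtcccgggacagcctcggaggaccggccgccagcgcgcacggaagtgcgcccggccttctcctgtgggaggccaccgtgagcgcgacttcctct
Itgb5, chr16:33829415-33829664, plus strand: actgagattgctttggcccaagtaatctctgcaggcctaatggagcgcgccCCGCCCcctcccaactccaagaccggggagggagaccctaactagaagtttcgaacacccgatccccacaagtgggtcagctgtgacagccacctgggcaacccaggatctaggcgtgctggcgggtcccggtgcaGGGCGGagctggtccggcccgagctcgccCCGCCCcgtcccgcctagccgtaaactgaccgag
The Itgb5 window held 3 matches and the Itgav window 0, although their GC contents were alike at 65.2% and 64.4%, against 53.2% over all promoters. GGGCGG occurred in 32.7% of 32851 promoters and in 9 of the 25 promoters of member genes. These belong to 8 genes, Itga3, Itga4, Itga5, Itgam, Itgb1, Itgb5, Lama5 and Lamb1. Of these, Itga3 was called higher and Itgb5 lower with TNBS PF. GGAATG, the TEAD core motif, occurred in 12.6% of promoters and in 3 of the 25 (Itga10, Itgb1 and Lamb3). TGANTCA, the AP-1 motif, occurred in 6.75% and in 1 of the 25 (Itgax). These counts are near the shares over all promoters, and any part of these letters in the directions was not tested. Neither TEAD nor AP-1 letters were in the windows of the called members that the table held. Both strands were searched, and no match overlapped a different motif in the windows printed.

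A pair of laminin chains, Lama4 and Lamb2, was called lower. Neither call held under TPM scaling, median-ratio scaling, quantile normalization, no filter or no mean-variance trend, where Itgb5 alone was called lower. Lama4 (ENSMUSG00000019846, chromosome 10, 38965515 to 39110188, plus strand) was at 10.6, 10.8 and 10.8 FPKM with TNBS PF, 11.5, 12.2 and 12.3 with control PF, and 11.8, 10.7 and 11.1 with PBS. Control PF lay above TNBS PF without overlap, and the PBS libraries spanned the gap. Its log2 difference was -0.15 (SE 0.0439, limma adjusted p = 0.0464), and it was called in 8 of 20 alternatives. The adjusted p was 0.127, 0.115 and 0.105 without TNBS PF 1, 2 and 3, 0.129 and 0.145 without control PF 2 and 3, and 0.0587 without PBS 3. With the replicate number as a block it was 0.0798.

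Lamb2 (ENSMUSG00000052911, chromosome 9, 108479736 to 108490530, plus strand) was at 15.4, 15.4 and 15.7 FPKM with TNBS PF, 16.9, 17.4 and 17.6 with control PF, and 20.0, 17.4 and 18.6 with PBS. The TNBS PF libraries were below all 6 others. Against control PF the log2 difference was -0.15 (SE 0.0456, limma adjusted p = 0.0492), called in 6 of 20 alternatives. The adjusted p was 0.124, 0.130 and 0.10 without TNBS PF 1, 2 and 3, 0.0705, 0.125 and 0.136 without control PF 1, 2 and 3, and 0.0643 without PBS 3. With the replicate number as a block it was 0.0718.

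Among members that were not called against control PF, Itgb1 lay higher in all 3 TNBS PF libraries than in all 6 others, with a log2 difference of 0.08 (SE 0.0278, limma adjusted p = 0.0810). It passed with only those 2 groups in the fit (adjusted p = 0.0450) and with limma voom on recovered fragments (0.00497). Itgb7 lay higher without overlap as well (0.19 log2, SE 0.0675, adjusted p = 0.0908). In all, the libraries did not overlap for 8 of 15 members, 5 higher and 3 lower, where that held for 31.8% of all tested genes, 13.6% higher and 18.2% lower. Lamb1 (0.04 log2, adjusted p = 0.487), Lamc1 (0.04, 0.587) and Itga5 (0.03, 0.667), all above 39 FPKM in each library, were not called.

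**Figure D2:**
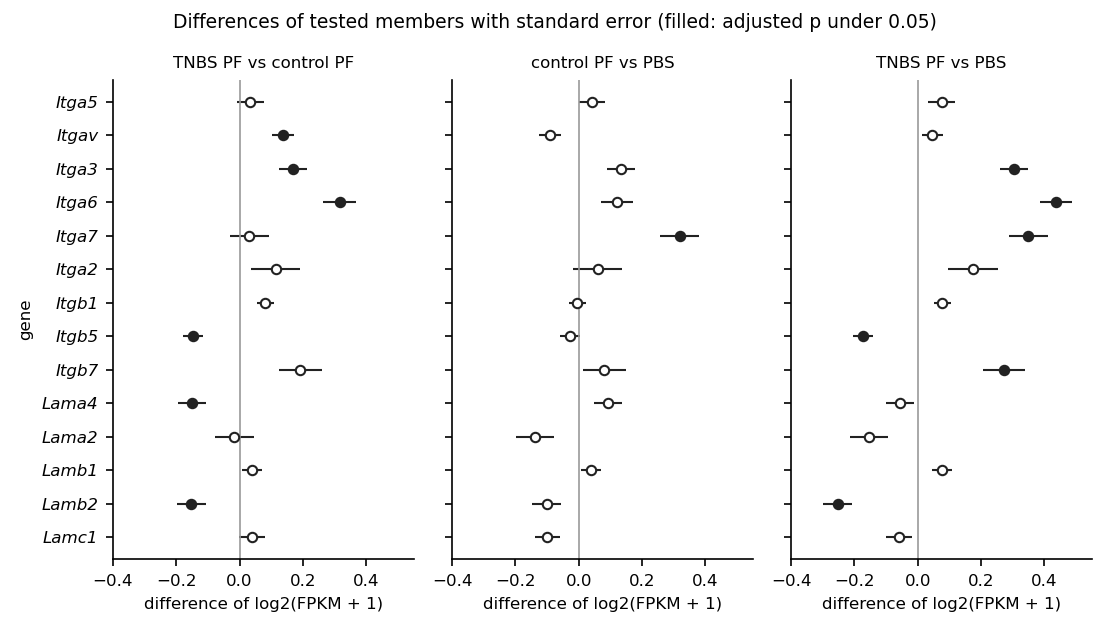
Log2 difference of FPKM + 1 of 14 of the 15 tested members in the 3 comparisons, with bars of 1 SE and filled points for called members. Itga6, Itga3 and Itgav lie to the right and Itgb5, Lama4 and Lamb2 to the left in TNBS PF against control PF, and Itga7 is the single called member in control PF against PBS.

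The second comparison asks what fluid of control mice did beside saline. Only 1 of 15 members was called, where 2.15% of all tested genes were, 1.02% higher and 1.14% lower. Itga7 (ENSMUSG00000025348, chromosome 10, 128933818 to 128958282, plus strand), the alpha7 laminin receptor subunit best known from skeletal muscle, was at 6.94, 6.69 and 6.94 FPKM with control PF, 5.44, 4.85 and 5.64 with PBS, and 6.75, 6.68 and 7.68 with TNBS PF. Both fluid groups lay above all 3 PBS libraries and overlapped each other. The difference between control PF and PBS was 0.32 log2 (SE 0.0619, limma adjusted p = 0.0181), a ratio of means of 1.29. It was lost without control PF 1 (adjusted p = 0.0695) or control PF 3 (0.0655) and with no filter on low values (0.0762). TNBS PF and control PF differed by 0.03 log2 for Itga7 (adjusted p = 0.810).

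The other 14 members were not called between control PF and PBS. Libraries of the groups did not overlap for 6 of 15 members, where that held for 18.6% of all tested genes, 9.33% higher and 9.32% lower. Itga3, Itga6 and Itga7 were the 3 higher ones with control PF, with log2 differences of 0.13 for Itga3 (adjusted p = 0.151) and 0.12 for Itga6 (0.267). Itgav, Lama2 and Lamc1 were the 3 lower ones, with log2 differences of -0.09 for Itgav (adjusted p = 0.217), -0.14 for Lama2 (0.286) and -0.10 for Lamc1 (0.251). The median log2 difference over the members was 0.04, against 0.0009 over all tested genes.

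The third comparison sets TNBS PF against saline. The 3 laminin-binding alpha subunits Itga6, Itga7 and Itga3 and the leucocyte subunit Itgb7 rose, and Itgb5 and Lamb2 fell. These are 6 of 15 members, 4 higher and 2 lower, where 16.7% of all tested genes were called, 7.8% higher and 8.88% lower. The median log2 difference was 0.08 over the members and -0.01 over all tested genes, with medians of the absolute difference of 0.16 and 0.08. Libraries did not overlap for 10 of 15 members, 7 higher and 3 lower, against 35.3% of all tested genes, 15.5% higher and 19.7% lower. Over all tested genes 822 were higher and 936 lower as reported, 624 and 1153 under TPM scaling, and 1047 and 762 under median-ratio scaling.

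Itga6 differed by 0.44 log2 (SE 0.0508, limma adjusted p = 0.000111), a ratio of means of 1.41 and the largest log2 difference of any tested member in the 3 comparisons. Itga7 differed by 0.35 log2 (SE 0.0619, limma adjusted p = 0.00228) and Itga3 by 0.30 log2 (SE 0.0441, limma adjusted p = 0.000553). All 3 laminin-binding subunits were called in this comparison in all 20 alternatives. Itga3 and Itga6 thus rose with TNBS PF against both references, and Itga7 rose against saline with either fluid. The summed FPKM of Itga3, Itga6 and Itga7 was 30.1 ± 0.179 with TNBS PF, 26.3 ± 0.539 with control PF and 22.9 ± 1.14 with PBS (SD, n = 3 each). Their share of the summed alpha FPKM was 24.8%, 23.3% and 20.7% in the same order, and no test is given for such sums over members.

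Itgb5 was 0.17 log2 lower with TNBS PF than with PBS (-0.17, SE 0.0317, limma adjusted p = 0.00272) and Lamb2 was -0.25 log2 from PBS (SE 0.0456, limma adjusted p = 0.00245). Both were called in this comparison in all 20 alternatives. Lamb2, called in only 6 of 20 alternatives against control PF, thus had the larger difference against saline. Lamb2 was 0.10 log2 lower with control PF than with PBS (-0.10, adjusted p = 0.311), so the control PF mean stood between the other means.

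Itgb7 (ENSMUSG00000001281, chromosome 15, 102215995 to 102231944, minus strand) was at 3.16, 3.15 and 3.36 FPKM with TNBS PF, 2.97, 2.50 and 2.63 with control PF, and 2.38, 2.75 and 2.36 with PBS. All 3 TNBS PF libraries were above all 6 others. The difference from PBS was 0.27 log2 (SE 0.0675, limma adjusted p = 0.0150), and it was lost without PBS 1 (adjusted p = 0.0525), PBS 3 (0.0540) or TNBS PF 3 (0.0610). These values rest on 118 to 223 recovered fragments per library. Its alpha partners were near 0: Itga4 averaged 0.040 FPKM with control PF, 0.055 with TNBS PF and 0.058 with PBS, and Itgae 0.124, 0.158 and 0.118. General leucocyte markers summed to at most 1.07 FPKM in any library.

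Lama2, Itgb1 and Lamb1 were not called against saline in the fit reported here but passed in others. Lama2 was at 2.42, 2.47 and 2.64 FPKM with TNBS PF and 2.88, 2.82 and 3.02 with PBS, without overlap (-0.16 log2, limma adjusted p = 0.0995, and 0.0128 with limma voom on recovered fragments). Itgb1 had an adjusted p of 0.0748, which was 0.0423 under median-ratio scaling and 0.00613 with voom. Lamb1 had 0.111, 0.0466 and 0.0250 in the same order.

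**Figure D3:**
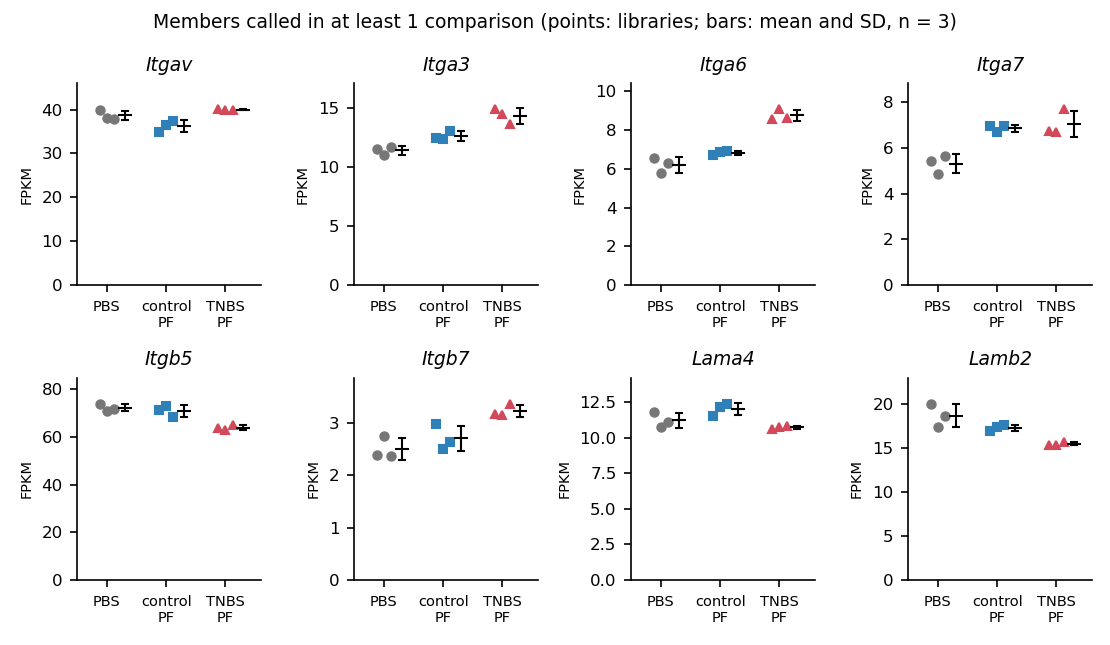
FPKM in each library for the members called in at least 1 comparison, with 1 panel per gene, points for libraries and bars for the mean and SD of 3. Itga6 reads 8.58 to 9.05 FPKM with TNBS PF above both other groups, Itga7 is low with PBS only, and Itgb5 and Lamb2 are lowest with TNBS PF.

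Summed by family, integrin alpha FPKM was 121.5 ± 0.532 with TNBS PF, 112.7 ± 3.38 with control PF and 110.5 ± 5.07 with PBS (SD, n = 3 each). The TNBS PF libraries, at 120.9 to 122 FPKM, lay above all others, whose highest was 116 FPKM. Integrin beta FPKM was 582 ± 7.16 with TNBS PF, 561 ± 6.56 with control PF and 563 ± 10.5 with PBS. Laminin FPKM was 118.5 ± 1.12, 119 ± 3.38 and 122 ± 5.05 in the same order, so the 3 groups overlapped. The FPKM of Itgb1 was 4.14 to 4.62 times the summed alpha FPKM in every library.

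The 21 members under the filter ranged from 0 to 0.947 FPKM, the highest value being Itgb8 in 1 library. Itgb8, which pairs with alphav, averaged 0.860 FPKM with control PF, 0.797 with TNBS PF and 0.927 with PBS on 180 to 241 recovered fragments. Of the laminin chains, Lama5 averaged 0.542, 0.567 and 0.652 FPKM in that order of groups, and Lama1, Lama3, Lamb3 and Lamc3 averaged under 0.14 FPKM in each group. The collagen receptor subunits Itga11 (0.368, 0.352 and 0.472), Itga10 (0.354, 0.335 and 0.407) and Itga1 (0.302, 0.282 and 0.329) also stayed under the filter, so Itga2 was the only one of the 4 collagen-binding alpha subunits tested.

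The integrin alpha subunits of leucocytes that pair with Itgb2 were at or near 0. Itgad was listed at 0 in all 9 libraries, Itgax had 2 recovered fragments in all, Itgam 3 and Itgal 7. Itgb2 averaged 0.574 FPKM with control PF, 0.477 with TNBS PF and 0.544 with PBS, above its alpha partners. None of these genes was tested for a difference. At this depth 1 fragment in a gene of 1 kb is worth 0.0391 to 0.0560 FPKM, and Itgb2 had 26 to 47 recovered fragments per library. For Itgam, 68.7% of the exon length overlaps the gene Gm49368, so reads of the pair cannot be told apart.

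Genes that work with these receptors were taken from lists of matrix and adhesion genes. Of 48 integrin adaptors and kinases at focal adhesions, 41 were tested, and 6 were higher and 2 lower with TNBS PF than with control PF, where 5.15% and 5.45% of all tested genes were called. The count higher was 10 under median-ratio scaling and 12 with voom on recovered fragments, and 3 with the replicate block or with no mean-variance trend. Over all tested genes 543 were higher as reported, 679 under median-ratio scaling, 837 with voom, 450 with the replicate block and 420 with no trend. Actn1, the actin crosslinker alpha-actinin, was at 54.9 ± 0.858 FPKM with TNBS PF and 45.5 ± 1.77 with control PF (0.26 log2, limma adjusted p = 0.000331). Zyx, the LIM protein zyxin, was at 35.1 ± 1.00 and 29.8 ± 0.451 FPKM (0.23 log2, adjusted p = 0.00112). Against PBS, 4 were higher and 2 lower with TNBS PF, where 7.8% and 8.88% of all tested genes were called, and Zyx was among the higher (0.19 log2, adjusted p = 0.00287). The count higher there was 7 under median-ratio scaling and 8 with voom, where 1047 and 1128 of all tested genes were higher, beside 822 as reported. The 6 of 41 called in either direction against PBS is near the 16.7% over all tested genes. With control PF, 0 were higher and 1 lower than with PBS, where 1.02% and 1.14% of all tested genes were called. The lower gene was Actn1, at 51.1 ± 1.06 FPKM with PBS (-0.16 log2, adjusted p = 0.0241), and this call was lost without control PF 1, control PF 2 or PBS 3, with no filter, with only those 2 groups fitted and with no trend. Leaving out 1 library gave 3 to 7 higher and 0 to 3 lower in TNBS PF against control PF, with 3 higher without control PF 1, TNBS PF 1 or TNBS PF 2, and 0 lower without control PF 2 or 3 or any single TNBS PF library. Against PBS the count higher was 2 without TNBS PF 3 and 7 without control PF 1. The median log2 differences of the list were 0.03, 0.02 and -0.03 in TNBS PF against control PF, TNBS PF against PBS and control PF against PBS, beside -0.01, -0.01 and 0.0009 over all tested genes.

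Among integrin ligands other than laminins, most called genes were lower. Of 40 such genes 31 were tested, and TNBS PF against control PF gave 5 calls upward and 8 downward, beside 5.15% and 5.45% of all tested genes. Control PF against PBS gave 1 higher and 9 lower, beside 1.02% and 1.14%. TNBS PF against PBS gave 4 higher and 18 lower, beside 7.8% and 8.88%. Leaving out 1 library gave 8 to 9, 6 to 10 and 14 to 18 lower in these comparisons, while the count of 5 higher was 3 without control PF 1 or TNBS PF 3. The 1 higher in control PF against PBS, Spp1, was lost without control PF 1, control PF 2, TNBS PF 3 or any single PBS library, and under median-ratio scaling, quantile normalization and the replicate block. The list's medians were -0.03, -0.08 and -0.19 log2 in that order, beside -0.01, 0.0009 and -0.01 over all tested genes. The counts lower against PBS include Postn, the alphav ligand periostin, which was under 1 FPKM in all 6 fluid libraries and passed the filter only through PBS, so it could enter only as a gene higher there. Fbln5, the elastic fibre protein fibulin-5, was at 7.69 ± 0.0905 FPKM with control PF and 11.0 ± 0.769 with PBS (-0.47 log2, limma adjusted p = 0.000605). The widest called changes in TNBS PF against control PF were upward, in Ccn2 (0.99 log2, limma adjusted p = 5.64e-08) and Ccn1 (0.61, 9.83e-08). Col3a1 was the widest downward there (-0.49 log2, adjusted p = 4.25e-06). In TNBS PF against PBS Col3a1 was the widest (-0.77 log2, adjusted p = 5.34e-08), while Ccn2 was higher (0.65, 2.53e-06).

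Among partners of laminins in the basement membrane, 19 of 29 were tested. In TNBS PF against control PF 1 was higher and 2 lower, in control PF against PBS 1 and 1, and in TNBS PF against PBS 1 and 5. In either direction these are 3, 2 and 6 of 19 genes, beside 10.6%, 2.15% and 16.7% of all tested genes, and the list's medians were -0.03, -0.04 and -0.07 log2. The 3 of 19 against control PF is near the share over all genes. The higher gene was Tinagl1, a secreted matrix glycoprotein, in all 3. It was at 19.2 ± 0.263 FPKM with TNBS PF, 16.5 ± 0.25 with control PF and 13.9 ± 0.435 with PBS, and the groups did not overlap. Its log2 differences were 0.21 (limma adjusted p = 0.00291) for TNBS PF against control PF, 0.23 (0.00538) for control PF against PBS and 0.44 (7.88e-06) for TNBS PF against PBS. Against control PF the count lower with TNBS PF was 0 without TNBS PF 2 and 1 without TNBS PF 1, TNBS PF 3 or control PF 2. Against PBS it was 2 without TNBS PF 1 or PBS 1 and 3 without TNBS PF 2, TNBS PF 3 or PBS 3. The 1 lower in control PF against PBS was 0 with any library but PBS 2 left out. Nid1, lower with TNBS PF than with PBS, is counted both in this list and among the ligands above.

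Laminin receptors that are not integrins had 13 of 15 genes tested, with 0 higher and 2 lower in TNBS PF against control PF, 0 and 1 in control PF against PBS, and 1 and 3 in TNBS PF against PBS. These are 2, 1 and 4 of 13 genes, beside 10.6%, 2.15% and 16.7% of all tested genes, so the first is near the share over all genes. The list's medians were -0.004, -0.03 and -0.07 log2. Sspn, sarcospan of the dystrophin complex, was at 7.25 ± 0.317 FPKM with TNBS PF, 8.94 ± 0.393 with control PF and 9.17 ± 0.525 with PBS. It fell against both, by 0.27 log2 (limma adjusted p = 0.00586) and 0.30 log2 (0.00194). Dag1, the laminin receptor dystroglycan of the same complex, was at 41.6 ± 0.467 FPKM with TNBS PF and 48.0 ± 2.49 with PBS, and fell by 0.20 log2 (adjusted p = 0.00405). The higher one against PBS was Cd151, a tetraspanin that binds laminin-binding integrins in the membrane and is also counted among the tetraspanins below. Cd151 was at 44.3 ± 0.519 FPKM with TNBS PF and 39.9 ± 0.171 with PBS (0.15 log2, limma adjusted p = 0.00415). The count lower against control PF was 1 without any single TNBS PF library, control PF 2 or control PF 3, and in control PF against PBS it was 0 with any library but PBS 2 left out. Against PBS it was 3 throughout, and the 1 higher was 2 without PBS 2.

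All 14 tetraspanins and other membrane partners of integrins were tested, with 2 higher and 2 lower in TNBS PF against control PF, 0 and 0 in control PF against PBS, and 4 and 4 in TNBS PF against PBS. The share of all tested genes called was 10.6%, 2.15% and 16.7% in these comparisons, and the list's medians were -0.003, -0.05 and -0.09 log2. In control PF against PBS, where limma on FPKM called 0, voom on recovered fragments called 1 in each direction. Over all genes voom called 177 higher and 198 lower there. The smallest p there was that of Bsg, which encodes basigin (-0.19 log2, limma adjusted p = 0.104). Slc3a2, the CD98 heavy chain that binds beta integrin tails, was at 49.9 ± 1.97 FPKM with TNBS PF, 39.2 ± 0.784 with control PF and 38.8 ± 1.42 with PBS. It rose by 0.34 log2 against control PF (adjusted p = 0.000124) and 0.35 log2 against PBS (4.81e-05). The count lower against control PF was 0 without control PF 2 or TNBS PF 2 and 1 without any other control PF or TNBS PF library, and against PBS it was 2 without TNBS PF 1 or PBS 3.

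**Figure D4:**
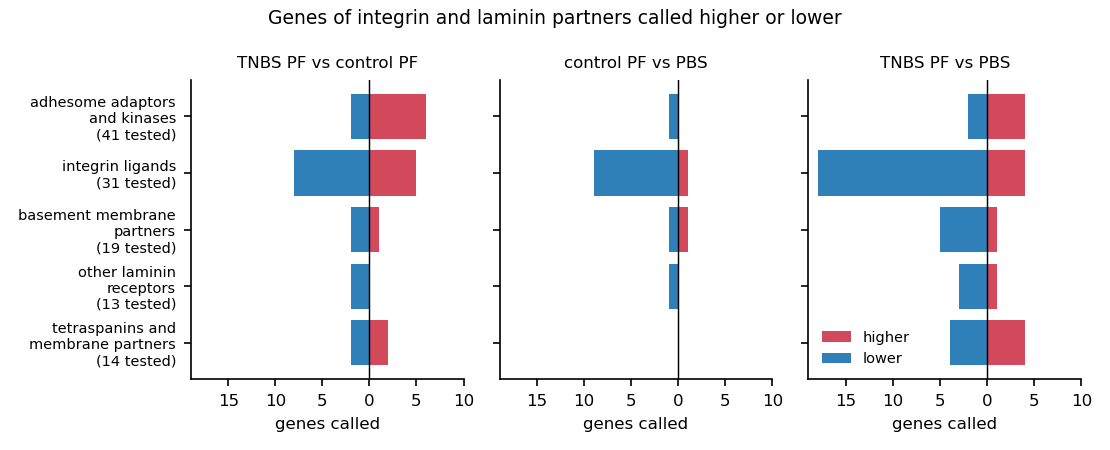
Tested genes of each partner list that were called in either direction, counted separately for each of the 3 comparisons. The ligand list has the longest bar, 18 of 31 genes lower in TNBS PF against PBS, beside 8.88% of all tested genes. The adaptor list has 6 of 41 higher and 2 lower in TNBS PF against control PF, beside 5.15% and 5.45%.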

How the data were processed

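Total RNA of 9 libraries, 3 per group, was sequenced from a mouse stromal cell line. The authors deposited FPKM per gene and library; per the submitters' processing notes, adapters were handled with cutadapt 1.15 and the build was mm10, and no label or header names the quantifier. The authors' group means and comparison columns were not used. Depth was recovered from the deposited FPKM and GENCODE M21 exon lengths for 21851 of 21959 genes: 97.2% to 97.3% of values under 1000 fragments came out whole within 0.01, and the libraries held 17.9 to 25.6 M fragments.

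Differences were fitted with limma 3.58.1 in R 4.3.3 on log2(FPKM + 1), with a mean-variance trend and all 9 libraries in 1 fit. Fold changes on this scale understate the change of low genes. Genes needed at least 1 FPKM in at least 3 libraries. P-values were Benjamini-Hochberg adjusted over 10537 genes, with a threshold of 0.05, and the median SE was 0.0545 log2. The fit was also run on simulated data, where the pass mark concerned changes larger than any member showed here. That check says nothing about differences of the size reported. No test is given for sums over members, where 3 against 3 libraries allow no exact permutation p under 0.1. The 20 alternatives changed the pseudocount (0.1 or 5), filter, scaling, block, groups fitted, trend or libraries, or used limma voom with median-ratio library sizes on recovered fragments. The members and lists were chosen with earlier results of these data known. Values are given for members called in any comparison and for the most abundant of each family, and for up to 4 genes of each partner list. RefSeq promoters gave the sequences. The values of 1 tested laminin gene are not reported here, although it enters the counts, sums and medians.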

Additional observations from a re-analysis of the deposited data

How the results depend on the processing

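The number of genes called over the whole table ranged from 660 to 1254 when 1 library was left out for TNBS PF against control PF (1117 as reported), 115 to 301 for control PF against PBS (227) and 1148 to 1737 for TNBS PF against PBS (1758). For control PF against PBS it was 103 with no filter, 117 with no mean-variance trend and 375 with voom on recovered fragments. The number of members called in TNBS PF against control PF was 6 as reported, 3 under quantile normalization, 3 with no trend, and 1 to 6 with 1 library left out. In control PF against PBS it was 0 with no filter and 0 to 1 with 1 library left out, and in TNBS PF against PBS 5 to 6.

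Same-numbered libraries shared little of their deviation from the group means, with correlations between -0.0978 and 0.0746. No label says what a replicate number shares, so whether the libraries were paired is not known. With a replicate block, the calls were 906 genes and 4 members for TNBS PF against control PF, 169 and 1 for control PF against PBS, and 1537 and 6 for TNBS PF against PBS.

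The difference in summed laminin FPKM between TNBS PF and control PF, -0.826 as reported, was 0.695 under median-ratio scaling and -2.78 to 0.225 with 1 library left out. For control PF against PBS the left-out ranges also crossed 0, at -0.569 to 4.40 for integrin alpha, -7.03 to 3.28 for integrin beta and -4.85 to 0.112 for laminins. Small differences of single members changed sign with 1 library left out: in TNBS PF against control PF Itga7 (-0.0269 to 0.0618 log2) and Lama2 (-0.0561 to 0.00601, and 0.0177 under quantile normalization), and in control PF against PBS Itga5 (-0.00768 to 0.0757), Itga2 (-9.95e-05 to 0.101) and Itgb1 (-0.0195 to 0.0138). The cause was not tested. Members with a mean under 5 FPKM have no value under the filter on the mean. Partner lists, their named genes and Itgbl1 were recomputed under the same alternatives, a choice made after seeing the data. The 21 members under the filter were left out by FPKM, which allows for gene length, and not by fragment count as such. Itgb8, not tested, had 180 to 241 recovered fragments per library, and Itgb7, tested, had 118 to 223.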

Other observations

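Several genes carry integrin names without being integrin subunits and fall outside the rule by their symbols. Itgbl1, a secreted protein with integrin beta-like EGF repeats, had a lower level in both fluids than in saline. It was chosen after its values were seen. Its level was 3.27 ± 0.145 FPKM with PBS, 2.23 ± 0.182 with control PF and 1.37 ± 0.033 with TNBS PF (SD, n = 3 each). The log2 differences were -0.40 for control PF against PBS (limma adjusted p = 0.00538), -0.45 for TNBS PF against control PF (0.000643) and -0.85 for TNBS PF against PBS (4.23e-06). It was called lower in all 3 comparisons in all 19 alternatives that give it a value (its mean is under the filter of 5 FPKM), with adjusted p of at most 0.0321, 0.00433 and 0.000186 in that order. The largest of these differences exceeded in size that of every tested member. Itga2b, a platelet subunit that the digits-only rule leaves out, averaged 1.33, 1.12 and 1.07 FPKM with control PF, TNBS PF and PBS and was not called. The integrin-binding proteins Itgb1bp1 and Itgb3bp were not called in any comparison either.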
